A study of Oryza sativa with 45 samples.

Results

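The RNA silencing and DNA methylation genes of rice were followed on the arrays through 21 probe sets, 1 for each of 21 genes, of the 54922 probe sets in the table. A gene was taken by a symbol or synonym of the rice reference annotation. The names were Argonaute (AGO), Dicer-like protein (DCL) or RNA-dependent RNA polymerase (RDR) with a number. Also taken were the DNA methyltransferase names MET1A, MET1B, CMT1 to CMT3 and DRM2. The chromatin remodeler names DDM1A and DDM1B and the DNA glycosylase names ROS1A to ROS1D completed the rule. A probe set with that single gene had to be on the array. DRM3 was not among these names and was read on a separate list. The rule matched 22 genes, and only CMT1 had no probe set. No gene of that annotation matched as DCL1, DCL3, CMT2, DDM1A or DDM1B, or as a ROS1 gene other than ROS1c. Genes under other names were not taken, so counts by family cover the members and not whole families. The members were 12 Argonautes (AGO1a, AGO1b, AGO1c, AGO1d, AGO2, AGO3, AGO4a, AGO4b, AGO7, AGO14, AGO17 and AGO18), 2 Dicer-like genes (DCL2a and DCL4), 2 RNA-dependent RNA polymerase genes (RDR2 and RDR4), 4 DNA methyltransferase genes (MET1a, MET1b, CMT3 and DRM2) and 1 DNA glycosylase gene (ROS1c).

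In plants, an RNA-dependent RNA polymerase copies a transcript into double-stranded RNA, a Dicer-like enzyme cuts it into small RNAs, and an Argonaute binds these and uses them to find matching RNA. One branch of the pathway silences messenger RNA and viruses after transcription, and the other guides DRM2 to matching DNA, where cytosines become methylated. MET1 copies methylation at CG sites after replication, CMT3 keeps it at CHG sites, and glycosylases of the ROS1 type cut methylated cytosines out again.

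Messenger RNA of whole seedlings of Oryza sativa ssp. japonica cv. Nipponbare was measured on Affymetrix RUSGene arrays, each with RNA of 1 pool of 10 seedlings that were 15 days old. The 45 arrays formed 15 groups of 3 pools: lines Ta, NSb and C grown without salt in generations F4, F6 and F8, each line of F6 also under salinity of 12 dS/m for 12 days, and each line of F8 also with a salt history, that is, from F6 ancestors grown under that salt and without salt themselves. The comparisons address what transgenesis with in vitro culture, salt, and salt in an earlier generation left in the transcriptome. Ta is 1 transgenic line made with Agrobacterium, with an ICE1 coding sequence joined to a TAP tag under the maize ubiquitin promoter and a hygromycin resistance gene. NSb is 1 negative segregant of another transgenic line, Tb, whose ICE1 transgene had no such tag. NSb has lost the transgene, and it comes from another transformation event than Ta, made by the same procedure. The paper names in vitro culture as all that Ta and NSb share. C was grown from seed and never went through culture. As Ta and NSb are 1 line each, a line and the event it derives from cannot be told apart. Pools of a group were separate biological samples, and p-values measure the spread between pools. In whole seedlings, fewer cells of a type and less RNA per cell cannot be told apart.

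Values are signals on the log2 scale, where a difference of 1 is a 2-fold change. Array medians lay between 4.46 and 4.50 in F4, 4.14 and 4.22 in F6, and 4.53 and 4.58 in F8, so levels were set against each other within a generation, for a probe set or for the summed signal of a list. Arrays of the same group correlated with r of 0.975 to 0.991 over all probe sets (45 pairs). The labels were checked on the transgene: the ICE1 probe set read 8.82 to 9.63 in Ta and 4.37 to 6.30 in NSb and C, and the hygromycin phosphotransferase probe set read 10.7 to 11.6 in Ta and 3.09 to 3.91 in NSb and C. A probe set was called when the adjusted p of limma was under 0.05. No filter on low values was applied, so all 21 members were tested in every comparison.

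Most of these genes were well above the middle of the arrays. The signal was above the array's own median on every array for 13 members: all 4 AGO1 genes, AGO18, AGO2, AGO4a, AGO4b, DCL2a, DCL4, RDR2, CMT3 and DRM2. It was under the median on every array for AGO3, AGO7 and AGO14, and on either side of it for AGO17 (above on 1 of 45 arrays), ROS1c (3), RDR4 (10), MET1a (30) and MET1b (44). Signals under the median may hold background, and folds of those genes are then too small. AGO3 lies next to AGO2 on the chromosome. Pools of a group differed little: the pooled SD had a median of 0.130 over the members and of 0.159 over all probe sets. It was lowest for AGO1c (0.0756) and highest for ROS1c (0.312). No member had the same values as another probe set, but the AGO1 genes, and MET1a and MET1b, are close relatives, and signal shared between their probes was not tested.

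Of the 8 members called for salt, 7 were Argonautes, which make up 12 of the 21 members. Averaged over the 3 lines of F6, with 9 arrays under salt and 9 without, 5 of the 21 members (23.8%) rose, against 15.2% of all probe sets, and 3 (14.3%) fell, against 11.7%. AGO18, AGO1d, AGO4b and AGO4a rose with RDR2, and AGO1c, AGO1a and AGO7 fell. Thus 7 of 12 Argonautes and 1 of 2 RNA-dependent RNA polymerases were called, and 0 of 2 Dicer-like genes, 0 of 4 methyltransferases and 0 of 1 glycosylases. Families of 1 to 4 members are too small for their counts to be set apart from the shares of all probe sets, 15.2% higher and 11.7% lower. The count of Argonautes was not tested against those shares. Its calls of AGO1a and AGO7 were lost when certain single arrays were left out. The median difference was 0.02 over the members and -0.01 over all probe sets. All changes were small: the differences ran from -0.23 to 0.56.

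AGO18, an Argonaute of the grasses that is known in rice for binding miR168 and for defence against viruses, had the largest rise. It read 5.76, 5.83 and 5.43 in Ta under salt, against 5.12, 5.03 and 5.06 in Ta without salt. In NSb it read 5.58, 5.52 and 5.64 under salt, against 4.98, 4.98 and 5.0 without salt. In C it read 5.55, 5.35 and 5.24 under salt, against 4.63, 4.88 and 5.16 without salt. Each of the 9 salt arrays was above each of the 9 others, which held for 1 of 21 members and 3.89% of all probe sets, while no member had all 9 salt arrays below the others, against 2.47% of probe sets. The mean difference was 0.56 (SE 0.07, 95% interval 0.41 to 0.72), a 1.48-fold rise with an adjusted p of 2.24e-05. By line it was 0.60 in Ta (adjusted p = 0.00545), 0.59 in NSb (adjusted p = 0.00422) and 0.49 in C (adjusted p = 0.02). The call in C was lost without C replicate 1 (adjusted p = 0.108), C replicate 2 (0.0591) or C salt replicate 1 (0.0829), and with only the groups of that contrast in the fit (0.174).

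**Figure D1:**
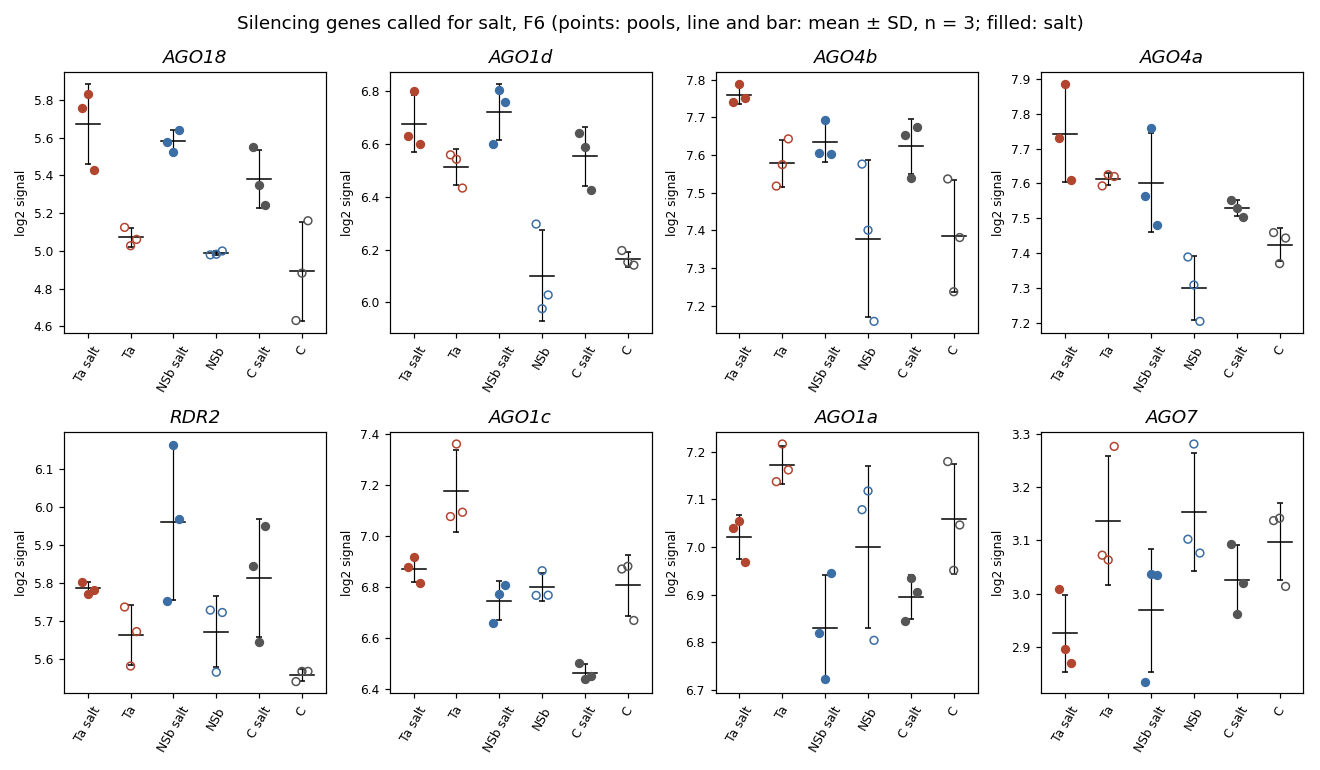
Signals on the log2 scale (vertical axis, a different range in each panel) of the 8 members called for salt in F6, by line, with filled points for pools under salt and open points for pools without. Lines and bars give the mean and SD of 3 pools. The 9 filled points of AGO18 all lie above the 9 open ones, and in the other 7 panels the ranges of the filled and the open points overlap across the lines.

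The 4 AGO1 genes, which encode Argonautes of the clade that binds most microRNAs, did not move together. AGO1d read 6.63, 6.80 and 6.60 in Ta under salt, against 6.56, 6.54 and 6.43 in Ta without salt. It read 6.60, 6.80 and 6.76 in NSb under salt, against 6.30, 5.98 and 6.03 in NSb without salt, and 6.64, 6.59 and 6.43 in C under salt, against 6.20, 6.15 and 6.14 in C without salt. All salt pools were therefore above the others in each line, but Ta without salt was already near the salt level of C. The mean rise was 0.39 (SE 0.06, adjusted p = 6.2e-05), with called differences of 0.62 in NSb (adjusted p = 0.000409) and 0.39 in C (adjusted p = 0.0173). The call in C was lost without C replicate 2 (adjusted p = 0.054), C salt replicate 1 (0.0639) or C salt replicate 2 (0.0606), and with only the groups of that contrast in the fit (0.1).

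AGO1c moved the other way. It read 6.88, 6.92 and 6.82 in Ta under salt, against 7.08, 7.36 and 7.09 in Ta without salt, and 6.50, 6.44 and 6.45 in C under salt, against 6.87, 6.88 and 6.67 in C without salt. In NSb it read 6.66, 6.77 and 6.81 under salt, against 6.77, 6.86 and 6.77 without salt, so that the pools overlapped in this line and not in Ta or C. The mean difference was -0.23 (SE 0.05, adjusted p = 0.00262). It was -0.31 in Ta (adjusted p = 0.038) and -0.34 in C (adjusted p = 0.0213). The call in Ta was lost without Ta replicate 2 (difference -0.21, adjusted p = 0.178) or without salt replicate 1, 2 or 3 of Ta (0.0912, 0.0695 and 0.116). That in C was lost without C replicate 1 or 2 (adjusted p of 0.0878 and 0.089) or C salt replicate 2 or 3 (0.0689 and 0.0677). With only the groups of each contrast in the fit neither was called (adjusted p of 0.111 in Ta and 0.145 in C).

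AGO1a read 7.04, 7.06 and 6.97 in Ta under salt, against 7.14, 7.22 and 7.16 in Ta without salt. In NSb it read 6.82, 6.72 and 6.95 under salt, against 7.08, 7.12 and 6.80 without salt, and in C 6.84, 6.93 and 6.91, against 7.18, 6.95 and 7.05. The pools overlapped in NSb only, and the mean difference was -0.16 (SE 0.05, adjusted p = 0.0347). Leaving out any 1 of 11 arrays lost this call, with adjusted p of 0.0504 to 0.0747: C replicate 1, C salt replicates 1 and 3, Ta replicates 2 and 3, Ta salt replicates 1 and 3, NSb replicates 1 and 2, and NSb salt replicates 1 and 2. AGO1b had a difference of the same size, -0.16, that was not called (adjusted p = 0.0568).

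AGO4a and AGO4b encode the Argonautes that carry siRNAs to DNA in the methylation branch, and RDR2 makes the double-stranded RNA for those siRNAs. AGO4b read 7.74, 7.79 and 7.75 in Ta under salt, against 7.52, 7.57 and 7.64 in Ta without salt. It read 7.61, 7.69 and 7.60 in NSb under salt, against 7.58, 7.40 and 7.16 without salt, and 7.65, 7.54 and 7.68 in C under salt, against 7.54, 7.24 and 7.38 without salt. The salt pools were the higher ones in each line, by a narrow gap in NSb and C. AGO4b rose by 0.23 (SE 0.06, adjusted p = 0.0084).

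RDR2 read 5.80, 5.77 and 5.78 in Ta under salt, against 5.74, 5.58 and 5.67 in Ta without salt. It read 5.75, 6.16 and 5.97 in NSb under salt, against 5.73, 5.57 and 5.72 without salt, and 5.85, 5.64 and 5.95 in C under salt, against 5.54, 5.57 and 5.57 without salt. Within every line the salt pools were the higher ones, although the lowest salt pool of C was under 4 pools of the other lines without salt. The mean rise was 0.22 (SE 0.06, adjusted p = 0.00987).

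AGO4a read 7.73, 7.89 and 7.61 in Ta under salt, against 7.59, 7.63 and 7.62 in Ta without salt. It read 7.57, 7.76 and 7.48 in NSb under salt, against 7.39, 7.31 and 7.21 without salt, and 7.55, 7.53 and 7.50 in C under salt, against 7.46, 7.37 and 7.44 without salt. Only the pools of Ta overlapped. The mean rise was 0.18 (SE 0.05, adjusted p = 0.0154), and it was not called once each array was centred on its median (0.14, adjusted p = 0.0598). In NSb alone AGO4a rose by 0.30 (adjusted p = 0.03), a call that ended with that centring (adjusted p = 0.0681) and without NSb replicate 2 (0.0677) or 3 (0.121) or NSb salt replicate 1 (0.0556) or 2 (0.146), and with only the groups of that contrast in the fit (0.117).

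AGO7, which binds miR390 to start trans-acting siRNAs, was under the array medians throughout. It read 3.01, 2.90 and 2.87 in Ta under salt, against 3.07, 3.06 and 3.28 in Ta without salt. In NSb it read 2.84, 3.04 and 3.04 under salt, against 3.10, 3.28 and 3.08 without salt, and in C 3.09, 2.96 and 3.02, against 3.14, 3.14 and 3.01. Only the pools of C overlapped. The mean difference of -0.16 (SE 0.05, adjusted p = 0.0362) was lost without any 1 of 9 arrays, with adjusted p of 0.0564 to 0.0795: C replicates 1 and 2, C salt replicates 2 and 3, Ta replicate 3, Ta salt replicates 2 and 3, NSb replicate 2 and NSb salt replicate 1.

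The 13 other members were not called for the mean of the lines. ROS1c was 0.31 higher under salt (95% interval 0.06 to 0.57, adjusted p = 0.0664), and its pools ranged widely: 2.59 to 3.45 under salt, against 2.29 to 3.47 without. CMT3 was 0.14 lower (adjusted p = 0.106), MET1a 0.14 lower (adjusted p = 0.424), and MET1b and DRM2 were 0.02 and 0.07 higher (adjusted p of 0.869 and 0.567). The intervals of the Dicer-like genes held 0 and were narrow, from -0.21 to 0.12 for DCL2a, which in Arabidopsis cuts viral RNA, and from -0.18 to 0.07 for DCL4, the source of trans-acting siRNAs. AGO2 differed by -0.11 (adjusted p = 0.15), AGO14 by 0.10, AGO17 by -0.12, AGO3 by 0.04 and RDR4 by 0.03.

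**Figure D2:**
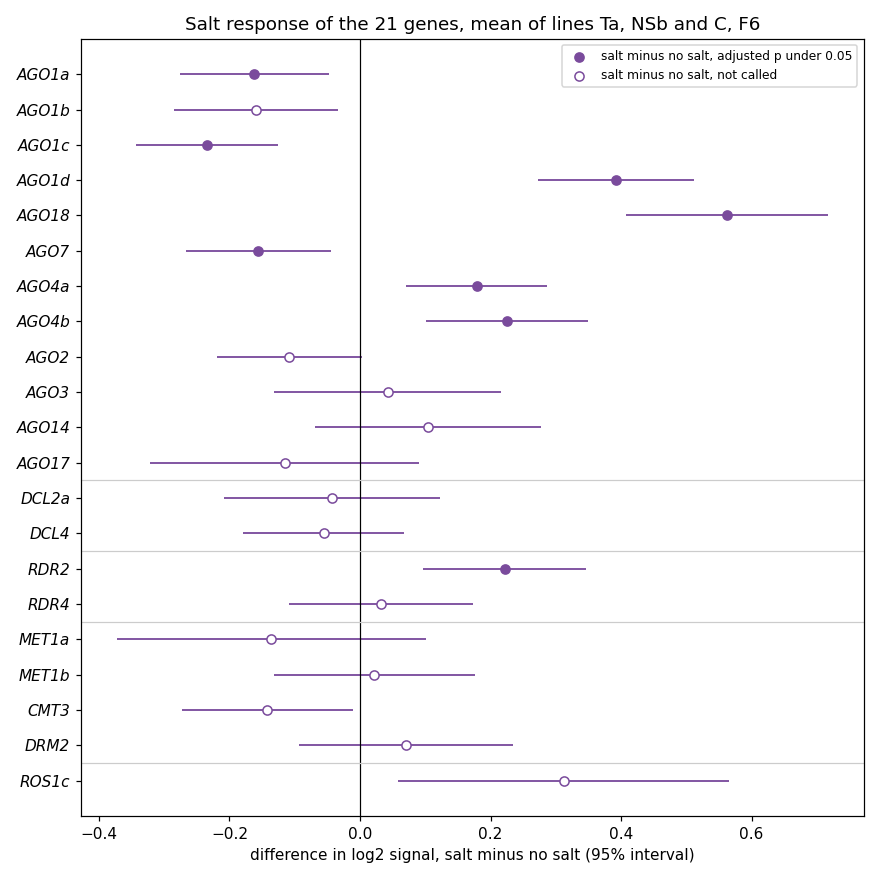
Difference in log2 signal between salt and no salt in F6 (horizontal axis, with 95% intervals from limma) for each of the 21 members, as the mean of lines Ta, NSb and C. Filled points were called at an adjusted p under 0.05. AGO18 at 0.56 and AGO1d at 0.39 lie farthest to the right, AGO1c at -0.23 farthest to the left, and grey lines part the Argonautes, Dicer-like genes, RNA-dependent RNA polymerases, methyltransferases and the glycosylase.

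Taken line by line, 4 of 21 members (19%) were called for salt in at least 1 of Ta, NSb and C, near the 20.6% of all probe sets. These were AGO18, AGO1d, AGO1c and AGO4a. With a fold of at least 3 as well, 0 members were called, against 0.819% of probe sets. Whether lines responded differently was tested directly, and 0 members were called, against 0.00546% of probe sets. At an unadjusted p under 0.05, 4 members (19%) differed in at least 1 of these comparisons, against 16.3% of probe sets. The smallest p was that of AGO1d, whose response in Ta was 0.46 below that in NSb (unadjusted p = 0.00468, adjusted p = 0.623). DRM2, the de novo methyltransferase, came next, with a response in Ta 0.45 above that in C (unadjusted p = 0.0298, adjusted p = 0.664). DRM2 read 6.57, 6.93 and 6.52 in Ta under salt, against 6.56, 6.34 and 6.22 in Ta without salt, and 6.39, 6.08 and 6.39 in C under salt, against 6.60, 6.21 and 6.50 in C without salt.

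Other genes of the pathway and cell type markers were measured in the same contrast. Of 9 partners in small RNA processing, mostly double-stranded RNA binding (DRB) proteins that assist Dicer-like enzymes, 3 rose and 1 fell. Of all probe sets 15.2% rose and 11.7% fell. DRB7 rose by 0.30 (adjusted p = 0.0496), DRB4 by 0.29 (adjusted p = 0.00299) and DRB1 (gene 4324620) by 0.19 (adjusted p = 0.00919). DRB2 (gene 4347527) fell by 0.22 (adjusted p = 0.00479). By line, DRB7 differed by 0.42 in Ta (adjusted p = 0.182), 0.52 in NSb (0.0691) and -0.05 in C (0.932). DRB1 (gene 4324620) differed by 0.32 in Ta (adjusted p = 0.0229), 0.25 in NSb (0.0598) and -0.01 in C (0.975). DRB4 differed by 0.31 in Ta (adjusted p = 0.0861), 0.17 in NSb (0.34) and 0.37 in C (0.046). Whether lines differed in these responses was not tested for list genes. The summed linear signal of the 9 was 741 to 800.3 under salt and 655 to 760.02 without. DRM3, the only gene found on a list of polymerase IV, polymerase V and methylation factors, rose by 0.23 (adjusted p = 0.000999). Of 2 SET domain genes SDG723, a histone methyltransferase of rice, rose by 0.34 (adjusted p = 0.00108). The histone deacetylase HDA703 rose by 0.19 (adjusted p = 0.0394), at a signal under the array median on every array. Of 3 jumonji demethylase genes 0 were called (smallest adjusted p 0.399). SHL2 and MEL1, an RNA-dependent RNA polymerase and an Argonaute under other names that the rule did not take, differed by 0.16 (adjusted p = 0.105) and 0.00 (adjusted p = 0.999).

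Of the tissue markers, some were called in each list but that of germ cells, to be read against the 15.2% of all probe sets called higher and the 11.7% called lower. Of 15 dividing cell markers 3 fell and 0 rose, with a median of -0.11: ORC1 (OsORC1) by 0.25, MCM5 by 0.22 and CycB1-1 by 0.19. Of 4 root markers 2 fell and 1 rose, with PIP2;5 lower by 1.03, NAAT1 lower by 0.72 and Lsi1 higher by 0.30. Of 6 shoot markers 2 rose and 0 fell, with a median of 0.01: PORA by 0.30 and PORB by 0.23. PORB rose in NSb (0.42) and C (0.51), while in Ta it differed by -0.23 and was not called (adjusted p = 0.336). Of 7 germ cell and anther markers, which a seedling should lack, 0 were called. Of these 7, 4 were under the median on every array and 1 was above it on every array. The summed linear signal was 631 to 841 under salt and 649.8 to 862 without for the dividing cell list, 1298 to 1500.05 under salt and 1063 to 1637 without for the root list, 2413 to 2995 under salt and 2346 to 2879 without for the shoot list, and 74.0 to 83.8 under salt and 73.4 to 90.04 without for the germ cell list. Their part in the salt differences of the members was not tested.

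The lines were then compared without salt. Within a generation 0 members were called between lines. In F4 this stands against 1.14% of all probe sets, in F6 against 0.071% and in F8 against 0.632%. At an unadjusted p under 0.05 in at least 1 of the 3 comparisons there were 5 members (23.8%) in F4, 5 (23.8%) in F6 and 7 (33.3%) in F8, against 21.8%, 17.6% and 17% of probe sets in the same generations.

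In F4 the smallest p was that of CMT3, which read 5.65, 5.94 and 5.47 in NSb, against 5.14, 4.94 and 5.10 in C, with no overlap. The difference was 0.63 (95% interval 0.26 to 0.99, adjusted p = 0.129). In the later generations CMT3 differed between NSb and C by less, reading 5.02, 5.03 and 4.68 in NSb, against 4.97, 4.88 and 4.89 in C of F6, and 4.98, 5.40 and 5.34 in NSb, against 5.10, 5.0 and 5.04 in C of F8. The change of this difference between F4 and F8 was not called (-0.44, adjusted p = 0.59). RDR4 had the next smallest p in F4, at 0.26 higher in Ta than in C (adjusted p = 0.212).

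In F6 the smallest p belonged to AGO1d, 0.41 higher in Ta than in NSb, and to RDR4, 0.48 higher (adjusted p = 0.292 for both). AGO1d read 6.56, 6.54 and 6.43 in Ta, against 6.30, 5.98 and 6.03 in NSb and 6.20, 6.15 and 6.14 in C, so that Ta stood apart from both other lines. In F8 the smallest p was that of ROS1c, 0.91 lower in NSb than in C (95% interval -1.40 to -0.43, adjusted p = 0.488), followed by DRM2, 0.25 lower in Ta than in NSb (adjusted p = 0.429).

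Averaging a line's difference over F4, F6 and F8 used 27 arrays, 9 for each line. In at least 1 of Ta minus C, NSb minus C and Ta minus NSb, 3 members (14.3%) were called, against 2.26% of all probe sets. AGO1c and RDR4 were higher in Ta than in C: 2 members (9.52%), against 0.978% of probe sets called higher in Ta. ROS1c was lower in NSb than in C: 1 member (4.76%), against 0.209% of probe sets called lower in NSb. Both of these comparisons use the same C arrays. The median of the members was 0.11 for Ta minus C, with 16 of 21 above 0, and -0.01 over all probe sets, with 47.8% above 0. It was 0.04 for NSb minus C, with 12 of 21 above 0, and -0.01 over all probe sets, with 47.5% above 0.

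AGO1c read 7.79, 7.77 and 7.69 in Ta, 7.75, 7.68 and 7.67 in NSb, and 7.50, 7.63 and 7.59 in C of F4. It read 7.08, 7.36 and 7.09 in Ta, 6.77, 6.86 and 6.77 in NSb, and 6.87, 6.88 and 6.67 in C of F6. It read 7.93, 7.82 and 7.89 in Ta, 7.79, 7.83 and 7.98 in NSb, and 7.72, 7.79 and 7.69 in C of F8. Every Ta pool was above every C pool of its generation, and NSb lay with Ta in F4 and F8 and with C in F6. The mean difference of Ta minus C was 0.23 (SE 0.05, 95% interval 0.13 to 0.33, adjusted p = 0.0125), and NSb minus C was 0.08 (adjusted p = 0.563).

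RDR4, of a clade of RNA-dependent RNA polymerases whose role is little known, read 4.53, 4.59 and 4.53 in Ta, 4.47, 4.45 and 4.45 in NSb, and 4.20, 4.32 and 4.37 in C of F4. It read 4.41, 4.24 and 4.19 in Ta, 3.74, 3.98 and 3.67 in NSb, and 3.91, 3.74 and 4.04 in C of F6. It read 4.15, 4.65 and 4.57 in Ta, 4.05, 4.48 and 4.18 in NSb, and 4.18, 3.81 and 4.12 in C of F8. The Ta pools were above the C pools in F4 and F6, and 1 of 3 Ta pools fell among those of C in F8. The mean difference of Ta minus C was 0.35 (SE 0.07, 95% interval 0.20 to 0.51, adjusted p = 0.0168), at signals close to the array medians, and Ta minus NSb was 0.26 (adjusted p = 0.108).

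ROS1c read 3.39, 4.12 and 3.86 in Ta, 3.79, 3.45 and 4.11 in NSb, and 4.38, 3.86 and 4.75 in C of F4. It read 2.86, 2.89 and 2.60 in Ta, 2.29, 2.48 and 2.39 in NSb, and 2.65, 2.72 and 3.47 in C of F6. It read 4.29, 3.80 and 4.37 in Ta, 3.66, 3.49 and 3.55 in NSb, and 4.12, 4.96 and 4.36 in C of F8. NSb pools were under all C pools in F6 and F8 and overlapped them in F4, and most of these signals were under the array medians. The mean difference of NSb minus C was -0.67 (SE 0.14, 95% interval -0.97 to -0.37, adjusted p = 0.032), and Ta minus C was -0.34 (95% interval -0.65 to -0.04, adjusted p = 0.324). The call in NSb was lost without any 1 of 12 arrays, with adjusted p of 0.0504 to 0.0792 and differences of -0.59 to -0.69: C replicates 1 and 3 and NSb replicates 1 and 2 of F4, C replicate 3 and all 3 NSb replicates of F6, and C replicate 2 and all 3 NSb replicates of F8.

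**Figure D3:**
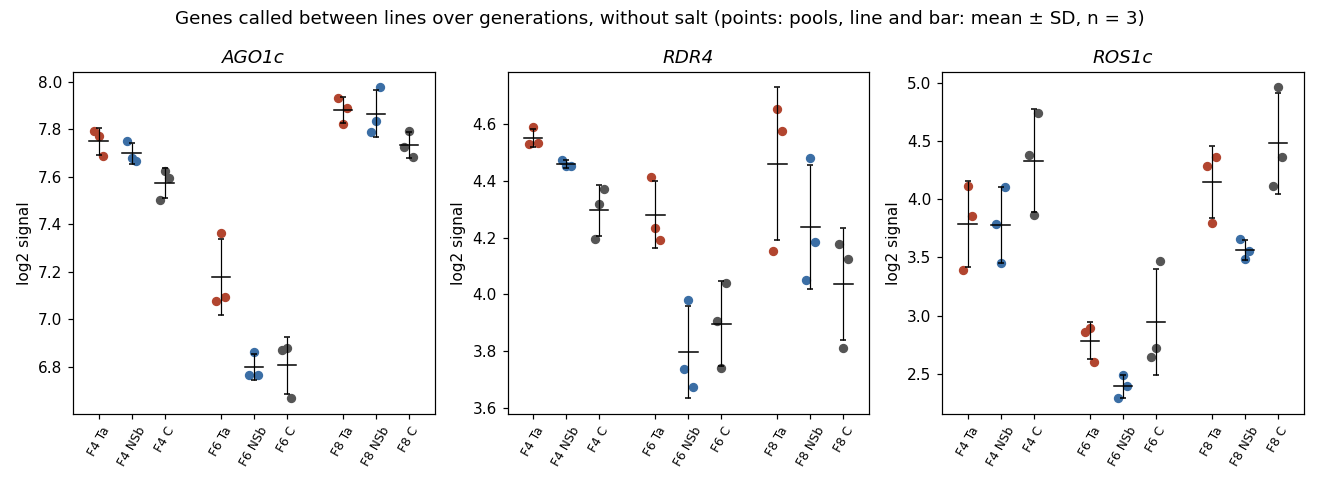
Signals on the log2 scale (vertical axis) of AGO1c, RDR4 and ROS1c in each pool without salt, by line within generations F4, F6 and F8. Lines and bars give the mean and SD of 3 pools, and levels of different generations are not on a shared footing. AGO1c is higher in all Ta pools than in the C pools beside them, and ROS1c is lower in all NSb pools than in the C pools of F6 and F8.

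AGO1d was next for Ta minus C, at 0.26 (95% interval 0.12 to 0.41, adjusted p = 0.0557), then MET1a at 0.31 (adjusted p = 0.236) and DCL2a at 0.15 (adjusted p = 0.252). AGO4a, AGO4b, RDR2, AGO1b and AGO18 lay between 0.11 and 0.16, with adjusted p of 0.316 to 0.377. For NSb minus C, CMT3 came after ROS1c at 0.27 (adjusted p = 0.205). Of the methyltransferases, MET1b and DRM2 differed from C by -0.01 and -0.06 in Ta, and by -0.05 each in NSb.

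**Figure D4:**
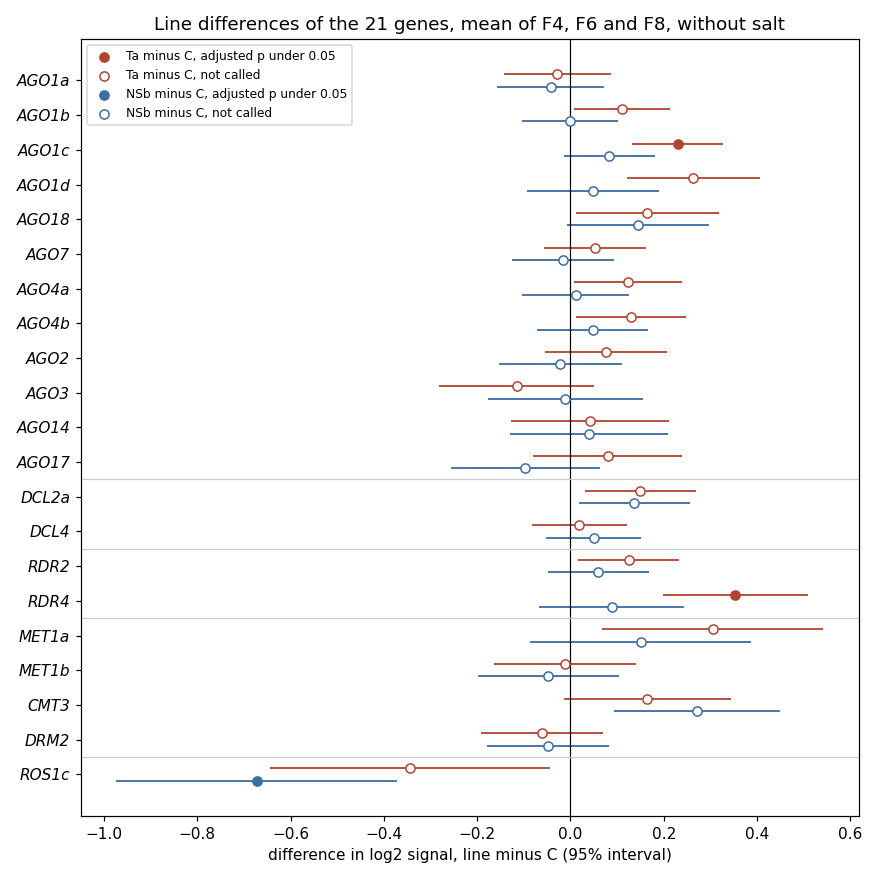
Mean difference in log2 signal over F4, F6 and F8 without salt (horizontal axis, with 95% intervals from limma) of Ta minus C (red) and NSb minus C (blue) for the 21 members. Filled points were called at an adjusted p under 0.05: AGO1c at 0.23 and RDR4 at 0.35 for Ta, and ROS1c at -0.67 for NSb.

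In the same averages, 537 of the 54922 probe sets were called higher in Ta than in C and 280 lower. For NSb against C, 194 were called higher and 115 lower. SGS3, the partner of the RNA-dependent RNA polymerase that makes trans-acting siRNAs, was 0.24 higher in Ta than in C (adjusted p = 0.0428). It was the only call among the 9 processing partners. JMJ706, a histone demethylase, was 0.25 higher in NSb than in C (adjusted p = 0.0248). Among 15 dividing cell markers CDKB1-1 was 0.24 higher in Ta than in C (adjusted p = 0.0154), and the median of the list was 0.15 for Ta minus C and 0.09 for NSb minus C. Of 4 root markers Lsi2 was 0.36 lower in Ta than in C (adjusted p = 0.00103), and NAAT1 was 0.45 lower in NSb than in C (adjusted p = 0.011). The summed signal of the dividing cell list was 878 to 965 in Ta, 879 to 966 in NSb and 754 to 830.1 in C of F4, 797 to 862 in Ta, 649.8 to 767 in NSb and 689 to 789.8 in C of F6, and 1077 to 1158 in Ta, 959.7 to 1131 in NSb and 958 to 1053 in C of F8. It was thus higher in all Ta pools than in the C pools of the same generation, as AGO1c was, and higher in NSb than in C without overlap in F4 only. The summed signal of the root list was 1198 to 1472 in Ta, 1077 to 1278 in NSb and 1593 to 1606 in C of F4, 1124 to 1229.9 in Ta, 1369 to 1637 in NSb and 1063 to 1452 in C of F6, and 2322 to 2442 in Ta, 2884 to 2968 in NSb and 3146 to 3186 in C of F8. Both Ta and NSb were under C in F4 and F8 without overlap, and overlapped with C in F6. That of the shoot list was 2595 to 2703 in Ta, 2663 to 3030 in NSb and 2199 to 2574 in C of F4. It was 2701 to 3084 in Ta, 2420 to 2945 in NSb and 2396 to 2642 in C of F8. Ta was thus above C without overlap in F4 and F8, and NSb in F4 only. In F6 the range of Ta lay within that of C, and NSb overlapped with C. The 6 shoot and 7 germ cell markers had 0 calls in either comparison (smallest adjusted p 0.0554, for PORA in Ta minus C). Whether these lists bear on the line differences of the members was not tested.

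A change of the line differences between F4 and F8 was called for 0 members, against 0.936% of all probe sets, and 3 members (14.3%) had an unadjusted p under 0.05, against 18.5%. AGO2, which in Arabidopsis acts against viruses, had the smallest p. It read 5.65, 5.80 and 5.49 in Ta, against 5.86, 5.71 and 5.64 in C of F4, and 5.98, 5.94 and 5.91 in Ta, against 5.61, 5.78 and 5.40 in C of F8. The Ta pools thus overlapped those of C in F4 and were all above them in F8, and the change was 0.44 (95% interval 0.12 to 0.76, adjusted p = 0.31). DRM2 followed, with a change of Ta minus NSb of -0.34 (adjusted p = 0.58).

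Under salt, 0 members were called between lines, against 0.506% of all probe sets. At an unadjusted p under 0.05 there were 9 members (42.9%), against 18.2%. AGO1c was closest, with the values given above: all 3 Ta pools under salt were above all 3 C pools under salt, by 0.41 on average (95% interval 0.22 to 0.60, adjusted p = 0.0639). It was called without C replicate 3 of the pools without salt (adjusted p = 0.0253). CMT3 read 5.07, 4.81 and 4.94 in Ta under salt, 4.83, 4.83 and 5.12 in NSb under salt, and 4.53, 4.67 and 4.55 in C under salt. Both lines were above C, Ta by 0.36 (adjusted p = 0.186) and NSb by 0.34 (adjusted p = 0.584).

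Salt in the F6 ancestors left no called difference in F8. Within the lines 0 members were called, against 0.0346% of all probe sets, and 1 member (4.76%) had an unadjusted p under 0.05, against 17.4%. For the mean of the lines 0 members were called, against 0.0455%, and 0 had an unadjusted p under 0.05, against 7.92%. The member differences in that mean ran from -0.13 to 0.06, with a median of -0.05 over the members and 0.00 over all probe sets. DCL2a in NSb had the smallest p among the lines: it read 7.79, 7.74 and 7.68 with salt history, against 7.80, 7.95 and 8.04 without, a difference of -0.20 (95% interval -0.38 to -0.01, adjusted p = 0.734). RDR2 in Ta came second, reading 5.94, 5.95 and 6.02 with salt history, against 6.12, 6.04 and 6.17 without (difference -0.14, adjusted p = 0.713). For the mean of the lines MET1b (-0.13, adjusted p = 0.659) and AGO18 (-0.09, adjusted p = 0.765) had the smallest p. AGO18, which rose under salt in F6, had a 95% interval of -0.22 to 0.04 here.

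A difference between lines in the effect of salt history was called for 0 members, against 0.00364% of all probe sets. An unadjusted p under 0.05 was found for 2 members (9.52%), against 13%: DCL2a, with an effect in NSb 0.30 below that in C (adjusted p = 0.853), and ROS1c, with an effect in NSb 0.72 above that in C (adjusted p = 0.856). ROS1c read 4.15, 3.52 and 4.11 in NSb with salt history, against 3.66, 3.49 and 3.55 in NSb without, and 3.98, 4.24 and 4.13 in C with salt history, against 4.12, 4.96 and 4.36 in C without. Between lines with salt history 0 members were called, against 0.894%, and 2 members (9.52%) had an unadjusted p under 0.05, against 18.6%. These were AGO2, 0.25 higher in Ta than in C (adjusted p = 0.491), and AGO1c, 0.16 higher (adjusted p = 0.5), with 7.85, 7.98 and 7.88 in Ta and 7.72, 7.81 and 7.71 in C.

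**Figure D5:**
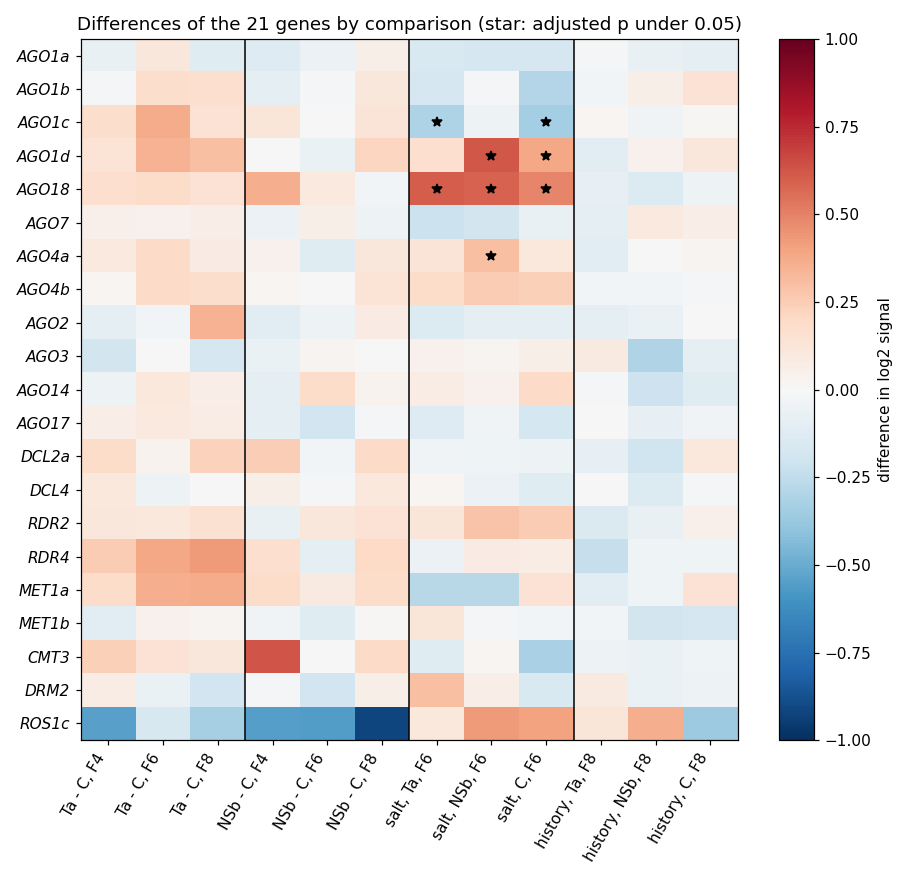
Differences in log2 signal (colour scale from -1 to 1, red for higher in the group named before the minus sign, under salt or with salt history) for the 21 members (rows) in 12 comparisons (columns): Ta minus C and NSb minus C in F4, F6 and F8, salt minus no salt in each line of F6, and salt history minus none in each line of F8. Stars mark an adjusted p under 0.05, and all of them lie in the salt columns, in the rows of AGO18, AGO1d, AGO1c and AGO4a. The ROS1c row is blue in all 6 line columns, from -0.16 to -0.91.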

How the data were processed

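Per the submitters' processing notes, RMA was run in Affymetrix Expression Console. The authors deposited log2 signals for 54922 probe sets, with values from 0.649 to 12.944. Versions, and the share of probe sets that their filter on the standard deviation kept, are not given in the sources used here. All 45 sample columns were used and 0 were left unused. Array medians differed between generations, and whether generations were normalised together is not stated, so levels were compared within generations only. The log2 values were used as deposited.

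Symbols came from the array's annotation, updated through a rice reference annotation (assembly ASM3414082v1) by gene identifier: 24080 probe sets had 1 gene, 95 had several and 30747 had none named. The members and lists were chosen with earlier results of these data known. SHL2 and MEL1 were added after the annotation was seen. Lists of methyl-CpG-binding, SNF2 and other demethylase genes matched 0 genes.

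Group means were fitted with limma (version 3.58.1, under R 4.3.3) to the arrays of a generation (9 without salt or history, 18 with F6 salt or F8 history) or to 27 arrays over generations, with 2-sided tests adjusted by Benjamini-Hochberg over all probe sets of a comparison. The steps were tested on simulated data. A gene was named as a member, with the values of every array where called. In comparisons with no call, the 2 members with the smallest p were named, and up to 3 genes of a list. The number of arrays limits the precision. Alternatives were a fold of at least 3, centring on array medians, robust variances with an intensity trend, only probe sets with 3 or more arrays over the median of all values (4.39), the 10% of probe sets with the highest SD, identical probe sets counted once, other sets of arrays in a fit, the replicate number as a block, and each array left out. Figures used Python with matplotlib.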

Additional observations from a re-analysis of the deposited data

How the results depend on the processing

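The alternatives were run for the counts of members and for the members called or with the smallest p in a comparison, not for list genes, and none of these differences changed sign. With a fold of at least 3, 0 members were called for salt in at least 1 line (4 without that minimum), 0 for the mean of the lines (8) and 0 between lines over generations (3). With only the groups of each contrast in the fit, 2 members were called for salt in at least 1 line (AGO18 and AGO1d), and with all 45 arrays in 1 fit 7 were. That fit also called 1 member between lines in F4 (CMT3), 2 in F6 without salt and 2 under salt, where the main count was 0 each time. Between lines under salt, 1 member was called with an intensity trend and robust variances and 1 with the filter on low values, which 15 to 16 members passed, AGO1c in both (adjusted p = 0.0447 and 0.034), and 0 to 1 when an array was left out. Between lines over generations, 1 member was called with the 10% highest SD. That filter kept only 1 member for the 27 arrays, so a count of 3 could not be reached. The cause of the other changes was not tested. Leaving out an array gave 3 to 5 members for salt in at least 1 line, 6 to 9 for the mean of the lines and 2 to 3 between lines over generations. The salt calls of AGO18, AGO1d, AGO1c, AGO4b and RDR2 for the mean of the lines were not lost in any alternative that gave them a value, other than the fold minimum.

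Replicate numbers of the labels were tried as pairs. Deviations of same-numbered arrays had a median r of 0.004 in F4, -0.008 in F6 and 0.013 in F8. In F6 their r ran from -0.224 to 0.277, against -0.295 to 0.275 for arrays with different numbers. With 3 numbers to choose from, 21 of 45 arrays correlated best with their own number. With the replicate block, 1 member was called between lines over generations instead of 3, as RDR4 (adjusted p = 0.0515) and ROS1c (0.0821) were not, and AGO7 was not called for salt (0.053). With only the groups of the contrast ROS1c had an adjusted p of 0.0863. Signals near or under the array median limit AGO3, AGO7, AGO14, AGO17, RDR4, ROS1c and MET1a, which was above it on 30 of 45 arrays.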
